A study of Mus musculus with 2 samples.

Results

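The cells described here were 853 tumor phagocytes that carried the most transcripts of Il1r2, Ifitm1 and Ltb4r1, out of 15319 phagocytes passing a gate and 23792 cell barcodes in all. They came from a syngeneic fibrosarcoma, a connective tissue tumor, grown from a subcutaneous implant in C57BL/6 mice of wild-type genotype. Digested tumor was passed over a magnetic column, and the cells that ran through (iron-negative) and those retained and then eluted (iron-positive) were each profiled as 1 single-cell RNA library with the 10x Genomics 3' method. The labels give neither the number, age or sex of the mice, nor the cell line, nor how long the tumors grew, and every animal was wild type with no drug or other agent named. The iron-negative library held 391 of the chosen cells and the iron-positive library 462. With 1 library in each fraction there is no replicate, so no p-value is given anywhere, and each interval is a 95% interval for counting error only.

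The gate kept barcodes with at least 3000 UMIs (unique molecular identifiers, each standing for 1 captured transcript), at most 15% mitochondrial UMIs and at least 3 of the phagocyte genes Csf1r, Cd68, Ctss and Fcgr3. It allowed at most 1 UMI of the endothelial gene Cdh5, 2 of the pericyte gene Rgs5 and 3 of the collagen gene Col1a1. Cells were then ranked over both libraries by the summed UMIs of Il1r2, Ifitm1 and Ltb4r1 per 10000 UMIs, and the top 8%, or 1226 cells, were taken. From these, 373 cells with 10 or more UMIs of Ly6c2 plus Plac8 per 10000 were left out, since both are genes of blood monocytes. Transcripts of the same cells therefore chose them, and the levels of the genes of the rule are a description. The comparison group, the other phagocytes, was the 14093 gated cells outside the top 8%. Of these, 705 had Ly6c2 plus Plac8 at 10 or more per 10000, a kind of cell that the chosen group could not hold.

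Interleukin 1 is an early alarm cytokine made by myeloid cells, and Il1r2 encodes its decoy receptor, which binds the cytokine without signalling. Ltb4r1 encodes the high-affinity receptor for leukotriene B4, a lipid that draws neutrophils, monocytes and dendritic cells into inflamed tissue. Ifitm1 belongs to a family of small interferon-inducible membrane proteins that hinder the entry of enveloped viruses. Iron-laden macrophages are retained by a magnetic column, and in tissue such cells take up red cells and heme and pass iron on through the exporter ferroportin.

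The 3 marker genes lie on different chromosomes of the mouse genome (GRCm38, GENCODE annotation). Il1r2 (ENSMUSG00000026073) spans chr1:40074079-40125231 on the plus strand, Ifitm1 (ENSMUSG00000025491) spans chr7:140967221-140969825 on the plus strand, and Ltb4r1 (ENSMUSG00000046908) spans chr14:55765962-55768494 on the plus strand. All 3 are protein-coding. Their RefSeq promoter windows (build GRCm38.p6), from 250 bases before to 50 bases after the annotated start, are shown because the 3 transcripts were found together in the same cells. The windows are chr1:40085843-40086142 for Il1r2, chr7:140967826-140968125 for Ifitm1 and chr14:55765712-55766011 for Ltb4r1, all on the plus strand, and those of Il1r2 and Ifitm1 begin inside the longer GENCODE span. Capitals mark a match to one of 6 short motifs searched on both strands.
Il1r2: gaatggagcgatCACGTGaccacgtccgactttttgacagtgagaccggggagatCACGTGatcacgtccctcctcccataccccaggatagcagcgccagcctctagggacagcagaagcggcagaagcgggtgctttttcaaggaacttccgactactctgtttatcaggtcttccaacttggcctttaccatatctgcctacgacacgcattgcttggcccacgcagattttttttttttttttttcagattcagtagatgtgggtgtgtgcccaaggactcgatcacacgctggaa
Ifitm1: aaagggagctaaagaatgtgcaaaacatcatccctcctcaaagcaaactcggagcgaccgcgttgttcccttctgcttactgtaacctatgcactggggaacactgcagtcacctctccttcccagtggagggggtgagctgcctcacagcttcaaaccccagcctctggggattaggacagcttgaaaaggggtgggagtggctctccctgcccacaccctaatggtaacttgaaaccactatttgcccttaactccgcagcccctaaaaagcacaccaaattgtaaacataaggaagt
Ltb4r1: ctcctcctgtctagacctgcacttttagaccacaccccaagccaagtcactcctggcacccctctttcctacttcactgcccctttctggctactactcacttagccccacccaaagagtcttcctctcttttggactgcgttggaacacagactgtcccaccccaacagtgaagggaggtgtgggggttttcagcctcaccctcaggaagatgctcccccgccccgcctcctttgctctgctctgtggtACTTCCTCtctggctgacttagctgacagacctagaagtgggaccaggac

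The Il1r2 window held 2 matches to the E-box CACGTG, which begin at position -238 and position -195 counted from the start as 1. The E-box was added to the search after the sequence had been seen. The Ltb4r1 window held 1 match to GAGGAAGT, the ETS core bound by the myeloid factor PU.1, read on the minus strand and beginning at position 1. The Ifitm1 window held none of the 6 motifs, and no motif was found in more than 1 of the 3 windows. Over 32851 promoter windows of the same length, 7.15% held CACGTG and 3.2% held GAGGAAGT. The other motifs were the NF-kB motif (50.8% of windows), the C/EBP motif TTGCNNAA (10.8%), the AP-1 motif TGANTCA (7.81%) and the interferon-stimulated response element (3.44%). A match is a string of letters, not a shown binding site.

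Ifitm1 supplied most of the transcripts that chose the cells. It gave 77.1% of the 23670 UMIs of the 3 genes, against 16.9% for Il1r2 and 5.94% for Ltb4r1, and it had the most UMIs of the 3 in 720 of 853 cells. Il1r2 led in 105 cells, Ltb4r1 in 13, and 15 were tied. All 3 genes were detected in 399 cells (46.8%), 2 of them in 347 (40.7%) and only 1 in 107 (12.5%). The lowest chosen cell had 8.897 UMIs of the 3 genes per 10000 and the highest cell outside had 8.893, so the threshold fell in a continuous range. The median was 16.2 in the chosen cells and 0.494 over all gated cells, of which 46.3% had none of the 3. Within 1 per 10000 of the threshold lay 79 of the chosen cells, and 12 rested on fewer than 5 UMIs of the 3 genes.

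Il1r2 stood at 385 CPM (a gene's counts per 1000000 summed UMIs of a group) in iron-negative and 335 in iron-positive chosen cells, against 34.4 and 28.2 CPM in the other phagocytes. Ifitm1 stood at 1587 and 1682 CPM against 46.4 and 50.1. Ltb4r1 stood at 133 and 119 CPM against 21.0 and 21.6. These gaps were made by the choice of cells. With every cell thinned to 3000 UMIs, Ifitm1 was seen in 89.3% (85.8 to 92.1) of iron-negative and 92.9% (90.1 to 95.03) of iron-positive chosen cells, Il1r2 in 49.1% and 44.2%, and Ltb4r1 in 35.0% and 27.5%. At full depth (median 12631 and 10651.5 UMIs) the shares were 95.9% and 96.8% for Ifitm1, 72.6% and 70.3% for Il1r2, and 68.0% and 65.2% for Ltb4r1. In the 485 stromal cells of the iron-positive library (median 17995 UMIs), thinned the same way, Ifitm1 was seen in 21.0% (17.5 to 24.9), Il1r2 in 5.77% (3.87 to 8.24) and Ltb4r1 in 0.412% (0.0500 to 1.48). The Ifitm1 and Il1r2 shares in other iron-positive phagocytes, 11.8% and 7.03%, were below or close to those stromal shares, while the 7.12% for Ltb4r1 was above its stromal share. For Ifitm1 and Il1r2 this comparison cannot tell a UMI in those phagocytes from free RNA. Whether the stromal cells make these transcripts themselves was not tested.

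**Figure D1:**
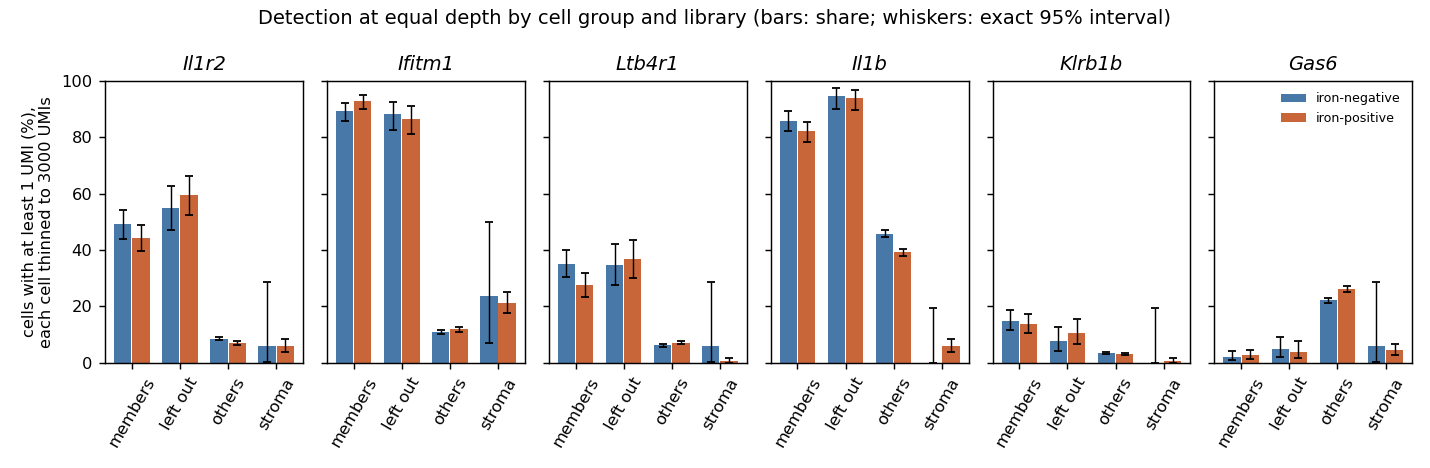
Share of cells (%) with at least 1 UMI of 6 genes after thinning every cell to 3000 UMIs, for the chosen cells, the top 8% cells left out for Ly6c2 and Plac8, the other phagocytes and stromal cells, in each library; bars are shares and whiskers exact 95% intervals. Il1b, which was not used to choose the cells, was seen in 85.9% and 82.3% of the chosen cells and in 45.8% and 39.2% of the other phagocytes, and Gas6 shows the opposite order.

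Detection of each marker gene went with detection of the others over all gated cells at equal depth. In the iron-negative library Ifitm1 was seen in 35.3% (32.3 to 38.4) of cells with an Il1r2 UMI and 13.7% (12.97 to 14.6) of cells without. In the iron-positive library these shares were 47.4% (43.8 to 51.0) and 15.8% (14.9 to 16.8). Ltb4r1 was seen in 20.1% of iron-negative cells with an Ifitm1 UMI against 5.85% without, and in 20.4% of iron-positive cells against 6.65%. Over the 3 pairs and both libraries, detection was 2.46 to 3.77 times as frequent in cells with the partner gene, a description over cells of the same droplet runs.

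The cells carried macrophage markers, of which Csf1r was also used by the gate. At least 3 of 10 macrophage markers were seen in 390 of 391 iron-negative and 462 of 462 iron-positive chosen cells, and none of the 10 was at 0. The summed level of those markers, 15359 and 12496 CPM, was lower than the 24759 and 20818 CPM of the other phagocytes. Monocyte markers summed to 813 and 851 CPM against 486 and 527, after the removal of the cells highest in Ly6c2 and Plac8. At least 3 of 8 monocyte markers were seen in 53.7% and 44.6% of the chosen cells against 18.6% and 15.1% of the others, at full depth. Ly6c2 and Plac8 are among the 8, so the rule shaped both the sum and this share. Of the 4 monocyte markers outside the rule measured at 10 CPM or more, 3 were higher and 0 lower in both libraries, and only Ccr2 passed 2-fold. Ccr2, the receptor that brings monocytes out of the marrow, was at 291.5 and 289.5 CPM against 144 and 84.8, while Vcan was at most 10.52 CPM in either library.

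Markers of other cell types were scarce beside those of macrophages. The gate itself capped Cdh5 of the endothelial list and Col1a1 of the mesenchymal list, in the chosen cells and the other phagocytes alike. Neutrophil markers summed to 68.9 and 79.1 CPM over 10 genes, against 47.3 and 104.5 in the other phagocytes, with Ly6g, Camp and Ngp at 0 in both libraries, and 2 and 5 cells had 3 of them. Conventional dendritic cell markers summed to 28.3 and 32.4 CPM over 8 genes, against 15.5 and 14.4 in the other phagocytes, with Flt3 at 0.181 and 0.708 CPM. At least 3 of the 8 were seen in 4 and 3 chosen cells, 1.02% and 0.649%, against 0.130% and 0.141% of the others. The only one of the 8 at 10 CPM or more was H2-DMb2, an MHC class II gene, at 19.2 and 23.4 CPM against 11.4 and 8.29. T or NK cell markers summed to 29.6 CPM in iron-negative and 5.13 CPM in iron-positive chosen cells, against 2.23 and 3.65 in the others, with Ncr1 at 0 in both, and 2 cells in each library had 3 of the 7 markers. Gzma gave most of the iron-negative sum, with 94 UMIs against 3 in the iron-positive cells. Endothelial markers summed to 123 and 117 CPM against 64.1 and 77.1 in the other phagocytes, mostly from Pecam1, which leukocytes also express, and 1 and 18 cells had 3 of the 6. Flt1, an endothelial growth factor receptor also found on monocytes, was higher by 1.51 and 1.18 on the log2 scale. Mesenchymal markers summed to 11.97 and 55.8 CPM against 17.6 and 57.7. The osteoclast list, 5 genes that macrophages partly share, summed to 186 and 197 CPM against 309 and 303. Mature dendritic cell markers summed to 220 and 182 CPM against 167 and 145, mainly from Tmem123, and B cell, mast cell and red cell markers summed to under 10 CPM in both libraries. The part of these cells in the results was not tested.

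Among 3080 genes with at least 50 CPM in 1 of the 2 groups of each library, 27 (0.877%) were at least 2-fold higher in the chosen cells than in the other phagocytes of the same library in both libraries, and 53 (1.72%) were at least 2-fold lower. Within 1 library, 44 (1.43%) were higher and 77 (2.5%) lower in the iron-negative, and 34 (1.1%) higher and 82 (2.66%) lower in the iron-positive cells. The 2 groups were separated by transcripts of these same cells, so the counts describe what goes with the 3 genes. The median log2 ratio over 7541 genes at 10 CPM or more was -0.06 in the iron-negative and -0.02 in the iron-positive library, and 0.69% of these genes were at least 2-fold higher and 2.12% at least 2-fold lower in both.

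Il1b encodes interleukin 1 beta. It stood at 1930 CPM in iron-negative and 1714 CPM in iron-positive chosen cells, against 505 and 426 CPM in the other phagocytes, log2 ratios of 1.93 (1.90 to 1.96) and 2.01 (1.98 to 2.04). Both chosen groups were above both comparison groups as a whole. The 705 comparison cells high in Ly6c2 plus Plac8, taken alone, had Il1b at 1825 and 1932 CPM, as high as the chosen cells, with Nlrp3 at 278 and 285 CPM and Ccr2 at 390.3 and 299. Single cells varied widely: the median was 14.9 UMIs of Il1b per 10000 in iron-negative chosen cells, with an interquartile range of 4.89 to 30.5, and 5.12% of the cells had none. In the other iron-negative phagocytes the median was 1.41 and 29.2% had none.

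Other genes of the interleukin 1 system were nearer to the rest of the phagocytes. Of the 11 genes of that list measured at 10 CPM or more beside the decoy receptor, 5 were higher and 4 lower in both libraries at any size, with medians of 0.00 and 0.02, and Il1b alone passed 2-fold. Il1rn, the receptor antagonist, was at 256 and 232.5 CPM against 216 and 214. Il1a, the alpha cytokine, was at 6.53 and 14.9 CPM against 9.50 and 13.3. The signalling receptor Il1r1 was at 1.63 and 1.42 CPM, near nothing in these cells, and at 70.8 CPM in the iron-positive stromal cells. Il18bp, which neutralises interleukin 18, was lower at 94.6 and 79.0 CPM against 141 and 166. Irak2, a kinase of the pathway, was higher, with log2 ratios of 0.45 and 0.40.

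Nlrp3, the sensor of the inflammasome that matures interleukin 1 beta, was at 277 and 263 CPM against 170.0 and 164, log2 ratios of 0.71 (0.63 to 0.78) and 0.68 (0.60 to 0.76). Its adaptor Pycard was higher by 0.29 and 0.38 on the log2 scale, Casp1, the protease, differed by 0.06 and -0.06, and the ATP receptor P2rx7 was lower, with log2 ratios of -0.79 and -0.64. Of 9 genes measured in that list, 3 were higher and 5 lower in both libraries.

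In the leukotriene pathway, Alox5ap, the activator of the enzyme that starts leukotriene synthesis, was at 510 and 502 CPM against 443 and 477. Alox5, the enzyme itself, was at 1.09 and 1.24 CPM against 6.93 and 7.504. Lta4h, which makes leukotriene B4, was level with the other phagocytes, with log2 ratios of 0.00 and -0.02. Ltb4r2, the second receptor for the lipid, was at 0.544 and 0.177 CPM. Of 6 genes of the pathway measured beside Ltb4r1, 2 were higher and 2 lower in both libraries and none passed 2-fold. Among prostaglandin genes, Ptgs2, the inducible cyclooxygenase, was at 216 and 177 CPM against 94.4 and 134, and Ptgs1 and Hpgds were lower, at log2 ratios of -1.53 and -0.99 for Ptgs1 and -1.88 and -1.43 for Hpgds.

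The relatives of Ifitm1 were also higher, to a smaller degree. Ifitm3 was at 2201 and 2436 CPM against 998 and 1294, log2 ratios of 1.14 and 0.91, and Ifitm2 was at 1468 and 1345 CPM against 908 and 808, log2 ratios of 0.69 and 0.74. Ifitm1, Ifitm2 and Ifitm3 are neighbours on chromosome 7 and similar in sequence, and the labels do not say how reads shared between copies were counted. Type I interferon targets did not go with them. Of 15 measured, 4 were higher and 10 lower in both libraries, with medians of -0.41 and -0.17, Isg15 higher at log2 ratios of 0.41 and 0.57 and Rsad2, an antiviral enzyme, lower at -1.04 and -0.88. With the cells high in Ly6c2 and Plac8 kept in the chosen group, the iron-negative ratio of Rsad2 turned to 0.12 and the median of the list to 0.20, so this direction rests on their removal. Interferon gamma targets were mixed, with 3 of 14 higher and 6 lower in both, and Cxcl9, a T cell-attracting chemokine, was at 1373 and 1360 CPM against 1482 and 1144.

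The inflammatory part of the working name rested on a few genes. Of 18 measured cytokine and NF-kB target genes, 7 were higher and 7 lower in both libraries, with medians of 0.09 and -0.05, and only Il1b and Malt1 were at least 2-fold higher. Over all 7541 genes at 10 CPM or more, 32.1% were higher and 43.1% lower in both libraries at any size. Tnf was at 16.7 and 18.8 CPM against 30.4 and 29.8, Icam1, an adhesion molecule, at 49.0 and 50.3 against 69.9 and 65.7, and Nfkbia, the NF-kB inhibitor, at 259 and 214 against 260.4 and 265. Malt1, a paracaspase upstream of NF-kB, was at 368 and 354 CPM against 146 and 138. The cells are therefore called here by their genes.

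Klrb1b, a lectin-like receptor known from natural killer cells, had the highest value when genes were ordered by the smaller of their 2 log2 ratios. It was at 69.1 and 64.1 CPM in the chosen cells against 13.3 and 12.9 CPM in the others, folds of 5.20 and 4.96. Thinned to 3000 UMIs it was seen in 14.8% (11.5 to 18.8) and 13.6% (10.6 to 17.1) of the chosen cells, in 3.40% and 2.95% of the others and in 0.412% of iron-positive stromal cells. Napsa, an aspartic protease, was at 81.4 and 74.9 CPM against 12.7 and 19.5. Ocstamp, a membrane protein needed for cell fusion in osteoclasts, was at 65.5 and 69.6 CPM against 17.0 and 16.8. Ctsk, the collagenase that marks osteoclasts, went the other way, at 2.90 and 5.13 CPM against 52.3 and 59.5, and so did Acp5.

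Ly6i, a small surface protein of the Ly6 family, was at 108 and 110 CPM against 22.9 and 28.6, and Gpr171, a G protein-coupled receptor, was at 78.0 and 59.5 CPM against 27.1 and 19.3. Ass1, which recycles citrulline to arginine, was at 198 and 184 CPM against 66.3 and 69.5. Upp1, which splits uridine, and F10, coagulation factor X, were higher by log2 ratios of 1.62 and 1.45 and of 2.05 and 1.26. S100a11, a calcium-binding protein, was at 713 and 879 CPM against 238 and 331. The rest of the named higher genes were B3gnt5, AA467197, Stap1 and Cytip, with log2 ratios between 1.21 and 1.73. Both libraries of chosen cells were above both libraries of other phagocytes for each of these genes, an order that the rule for naming them largely set in advance. In the comparison cells high in Ly6c2 plus Plac8 alone, Ly6i was at 252 and 356 CPM and Napsa at 53.9 and 124, while Klrb1b was at 15.3 and 20.1 and Ocstamp at 20.3 and 22.4.

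**Figure D2:**
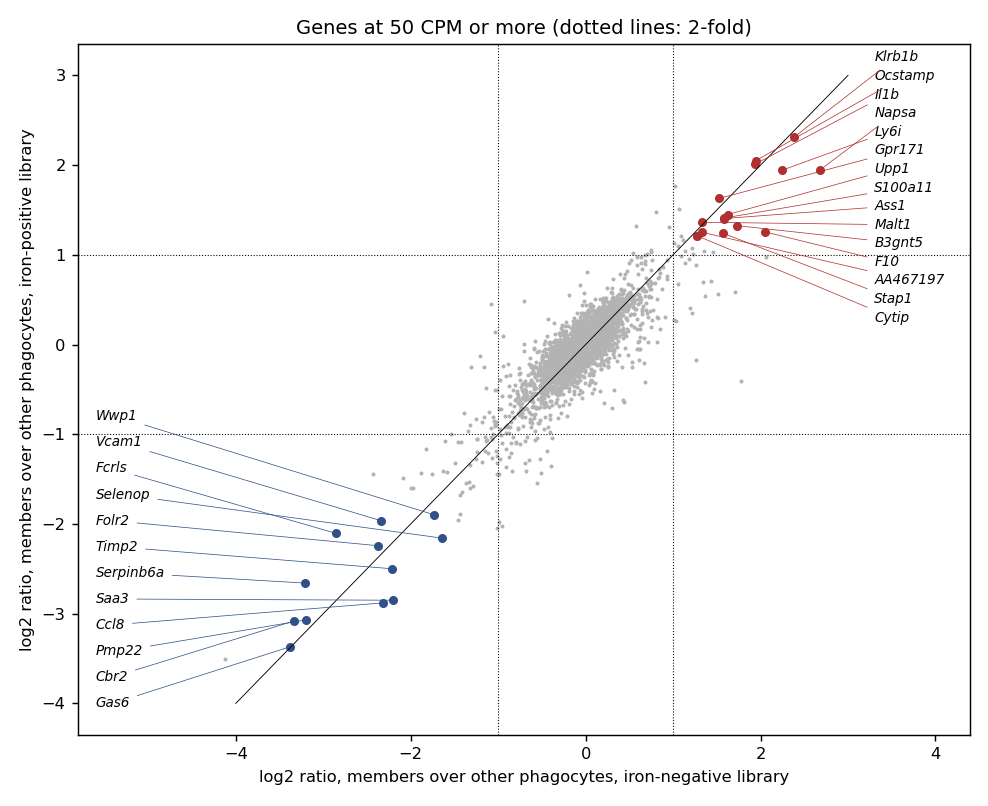
Each grey point is a gene at 50 CPM or more in 1 of the groups of each library, placed by its log2 ratio of chosen cells over other phagocytes in the iron-negative (x) and iron-positive (y) library; the solid line is equality and red and blue points are the named higher and lower genes. Klrb1b lies at 2.38 and 2.31 and Gas6 at -3.38 and -3.37, near the line of equality, while F10 and Napsa lie further from it. The named genes have the same sign in both libraries because the rule for naming them required it.

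MHC class II genes, which present antigen to helper T cells, were higher as a group. All 8 measured were higher in both libraries, with medians of 0.55 in the iron-negative and 0.96 in the iron-positive library and none past 2-fold in both. H2-Aa was at 4943 and 4234 CPM in the chosen cells against 3518 and 2260 in the others, and H2-Ab1 at 4939 and 4063 against 3179 and 2061. Ciita, the activator of these genes, had log2 ratios of 0.57 and 1.0. Itgax, an integrin of dendritic cells and some macrophages, was at 125 and 138 CPM against 74.1 and 67.5, and Mgl2, a galactose-binding lectin, at 99.0 and 99.5 against 47.4 and 34.9. Markers of conventional dendritic cells were also higher in sum, as given above, and their part in these levels was not tested. The costimulatory gene Cd86 was higher by 0.49 and 0.52 on the log2 scale. Itgb7, an integrin chain, was at 60.9 and 61.3 CPM against 22.7 and 37.7.

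Genes of resident-like macrophages were lower without exception. All 13 measured were lower in both libraries and 10 were at least 2-fold lower in both, beside 2.12% of all genes at that level, with medians of -2.38 and -2.24. Gas6, a ligand of the TAM receptors that clear dying cells, was at 10.52 and 15.4 CPM in the chosen cells against 110 and 160 in the others, 10.4-fold and 10.3-fold lower. Cbr2, a carbonyl reductase, was at 10.7 and 8.68 CPM against 109 and 74.1. Folr2, a folate receptor, was at 32.3 and 34.5 CPM against 168 and 164, and Fcrls, an Fc receptor-like scavenger, at 27.7 and 20.01 against 201 and 86.5. Retnla was at 1.99 and 1.06 CPM against 59.8 and 29.9. Selenop, which carries selenium, and Mrc1, the mannose receptor, were lower by log2 ratios of -1.64 and -2.16 and of -0.86 and -0.92.

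Other named lower genes were Pmp22, Serpinb6a, Saa3, Vcam1, Wwp1, Timp2 and Ccl8. Ccl8, a monocyte-attracting chemokine, was at 707 and 490 CPM against 3509 and 3607, and Timp2, an inhibitor of matrix metalloproteinases, at 110 and 104 against 510 and 590. Among 10 measured CC chemokines 7 were lower and 1 higher in both libraries, and Ccl2, Ccl7 and Ccl8 were at least 2-fold lower in both. Of 14 lipid-associated macrophage genes 11 were lower in both, among them the lysosomal proteases Ctsb (1523 and 1421 CPM against 3728 and 4243) and Ctsd, and Apoe (5501 and 3939 against 9518 and 8445). Of 11 complement genes 9 were lower in both, with medians of -0.35 and -0.34, and C1qa, part of the complement starter C1q, was at 3022 and 2588 CPM against 4834 and 3954. Of the 9 macrophage markers measured, 8 were lower in both, among them Adgre1, a macrophage surface receptor, at log2 ratios of -1.06 and -1.0.

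**Figure D3:**
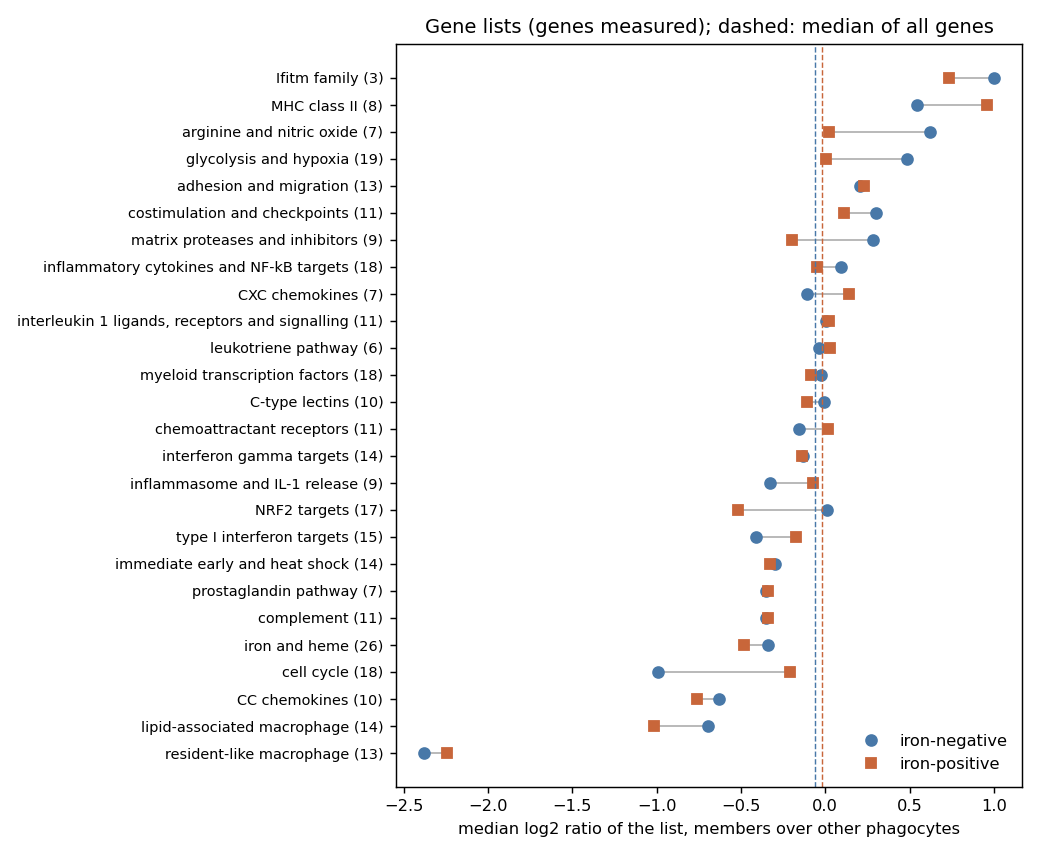
Median log2 ratio of chosen cells over other phagocytes for each gene list with at least 3 genes measured at 10 CPM or more (number in parentheses), in the iron-negative (circles) and iron-positive (squares) library; dashed lines are the medians of all genes, -0.06 and -0.02. MHC class II genes lie at 0.55 and 0.96 and resident-like macrophage genes at -2.38 and -2.24.

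Each marker gene was then taken alone, over gated cells without high Ly6c2 plus Plac8 and at 3000 UMIs each. Il1b was 2.61 and 3.25 times as high in cells with an Il1r2 UMI as in those without, 2.51 and 3.03 times for Ifitm1, and 2.54 and 2.34 times for Ltb4r1. Klrb1b was 3.03 and 4.11 times as high with Il1r2 and 2.09 and 1.63 times as high with Ltb4r1. Gas6 was at 0.342 and 0.350 times the level with Il1r2, 0.384 and 0.490 with Ifitm1 and 0.388 and 0.254 with Ltb4r1. Retnla, also a resident-like macrophage gene, had no common direction. It was at 1.63 and 0.0159 times the level with Il1r2, 0.612 and 1.49 with Ifitm1 and 1.01 and 0.0763 with Ltb4r1. The MHC class II gene H2-Aa separated the markers: it was 1.49 and 2.28 times as high with Il1r2, 1.15 and 1.57 times with Ifitm1, and 0.969 and 1.20 times with Ltb4r1. Arg1, an arginase of alternatively activated and hypoxic macrophages, was 2.20 and 1.73 times as high with Ltb4r1 and 1.04 and 0.629 times with Il1r2. The genes compared here were chosen after their values had been seen.

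**Figure D4:**
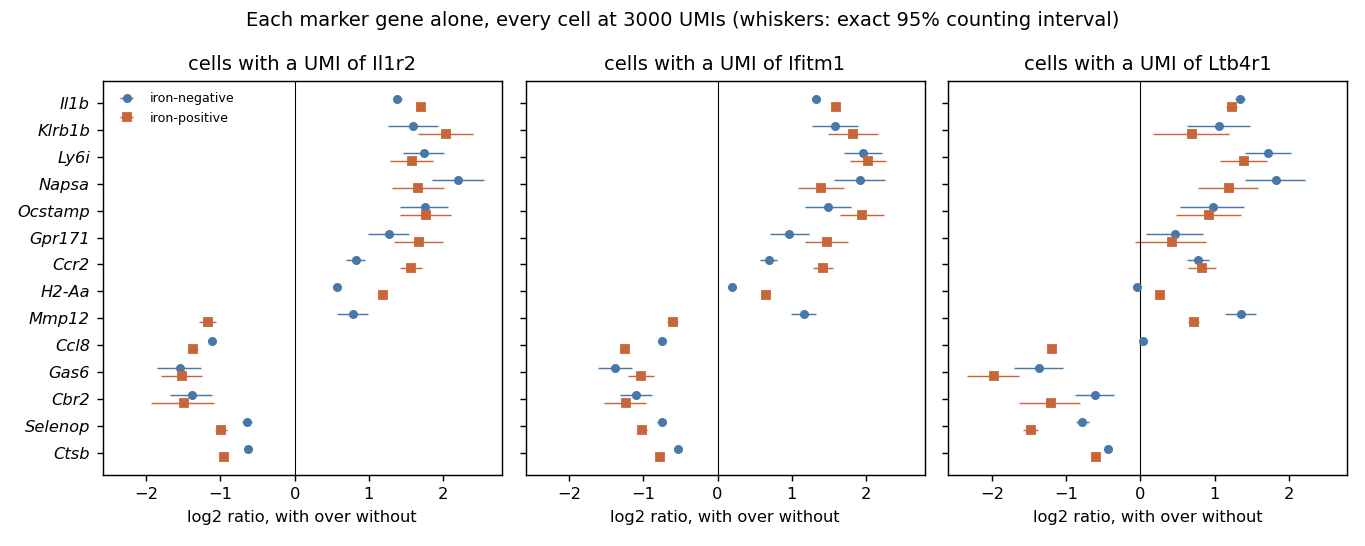
Log2 ratio of a gene's level in gated cells with a UMI of Il1r2, Ifitm1 or Ltb4r1 over those without, every cell at 3000 UMIs and cells high in Ly6c2 plus Plac8 left out; circles are the iron-negative and squares the iron-positive library, whiskers exact 95% counting intervals. Il1b, Klrb1b, Ly6i, Napsa and Ocstamp lie above 0 for each marker, Gas6, Cbr2, Selenop and Ctsb below 0, and Mmp12 lies on opposite sides of 0 in the 2 libraries for Il1r2 and Ifitm1.

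Within the chosen cells, those led by Il1r2 (58 and 47 cells) and those led by Ifitm1 (317 and 403 cells) had Il1b at 1994 and 2333 CPM against 1921 and 1645, close in the iron-negative and higher in the Il1r2-led cells of the iron-positive library. The Il1r2-led cells had more Klrb1b, at 96.6 and 97.0 CPM against 66.2 and 61.5, and more H2-Aa, at 6168 and 5812 CPM against 4780 and 4081. They had less Arg1, at 1079 and 1361 CPM against 2145 and 1985, less Nos2, the inducible nitric oxide synthase, at 60.9 and 20.8 against 114 and 110.0, and less Hmox1. Top2a, a gene of dividing cells, was at 3.97 and 23.1 CPM in the Il1r2-led cells against 62.7 and 108 in the Ifitm1-led cells. The Il1r2-led groups are small and the subsets share their libraries, so these are levels of 4 sums of cells.

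Over all gated cells thinned to 3000 UMIs, the genes whose counts tracked the 3-gene sum most closely included Il1b, Ifitm3, S100a6, Cytip, Plac8, S100a11 and Ly6c2. Spearman's rho was 0.311 over 8279 iron-negative and 0.382 over 7040 iron-positive cells for Il1b and at least 0.228 in both for the other genes. The lowest values were those of Ctsb, at -0.311 and -0.392, and of Ctsd, Timp2, Psap, Cd63, Apoe, Lamp1 and Selenop. Ctsb, Ctsd, Psap, Cd63 and Lamp1 belong to lysosomes and their membranes. Cells share library and depth here, and the values are a description.

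The 373 cells left out for Ly6c2 and Plac8, 171 iron-negative and 202 iron-positive, shared part of the pattern and differed in part. Their Il1b stood at 3849 and 3806 CPM, and the log2 ratio of chosen over left-out cells was -1.0 and -1.15. Ly6i was at 454 and 458 CPM in them and Isg15, an interferon target, at 752 and 788 CPM, against 176 and 208 in the chosen cells. Napsa, at 104.2 and 103.6 CPM against 81.4 and 74.9, and Gpr171, at 117 and 120 against 78.0 and 59.5, were also higher in the left-out cells. Klrb1b was at 36.2 and 63.8 CPM in the left-out cells against 69.1 and 64.1, and Ocstamp at 46.4 and 48.0 against 65.5 and 69.6. Chil3, a chitinase-like protein of mouse monocytes and macrophages, was at 279 and 318 CPM against 56.9 and 47.1. The chosen cells had more of the macrophage genes C1qa and Apoe, with log2 ratios over the left-out cells of 0.68 and 0.90 and of 0.64 and 0.86, and more Itgax, at 0.69 and 0.79. H2-Aa was close in both, at 4512 and 4454 CPM in the left-out cells. The left-out cells had a lower median depth, 8484 and 7171.5 UMIs, and the choice itself set them apart by their monocyte genes.

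The chosen cells made up 4.72% (4.28 to 5.20) of gated phagocytes in the iron-negative and 6.56% (6.00 to 7.17) in the iron-positive library, a ratio of 1.39 (1.21 to 1.59). The left-out cells had the same ratio, 1.39 (1.13 to 1.71), while for all gated cells high in Ly6c2 and Plac8 it was 1.08 (0.960 to 1.22). Of all barcodes, the chosen cells made up 3.86% and 3.38%, a ratio of 0.875 (0.763 to 1.004), since the gate kept 81.8% of iron-negative and 51.5% of iron-positive barcodes. The direction of the difference thus depended on the denominator. These intervals leave out the variation between tumors, which 1 library a fraction cannot give.

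Between fractions, 9 of 3078 genes (0.292%) at 50 CPM or more in 1 library were at least 2-fold higher in iron-positive than in iron-negative chosen cells, and 0 (0.0%) were at least 2-fold lower. In the other phagocytes of the same libraries, 39 of 3209 genes (1.22%) were higher and 3 (0.0935%) lower. The gene sets differ, since each was taken by its own group's level. Over the same 2890 genes at that level in both groups, 9 (0.311%) were past 2-fold in the chosen cells, all higher. In the other phagocytes 24 (0.830%) were, 23 of them higher and 1 lower. Median depth was lower in the iron-positive library, and the chosen cells had the smaller sums of UMIs. Fractions and libraries cannot be told apart here.

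Hmox1, the enzyme that breaks down heme, was at 197 CPM in iron-negative and 411 CPM in iron-positive chosen cells, a log2 ratio of 1.06 (0.96 to 1.17). In the other phagocytes it was at 398 and 1703 CPM, a log2 ratio of 2.10. The signal was uneven among cells: the 10% of iron-positive chosen cells with the most Hmox1 held 69.0% of its UMIs. Slc40a1, which encodes ferroportin, had 4 UMIs in iron-negative and 89 in iron-positive chosen cells, 0.725 and 15.8 CPM, with a log2 ratio of 4.28 (3.03 to 6.35). It was seen in few of them, 0.512% of iron-negative and 6.49% of iron-positive chosen cells at full depth. It was at 5.84 and 111 CPM in the other phagocytes, with a log2 ratio of 4.25. Fth1 and Ftl1, the ferritin chains that store iron, had log2 ratios between fractions of 0.12 and 0.15 in the chosen cells and of 0.61 and 0.73 in the others. Of 26 iron and heme genes measured, 20 were lower and 2 higher in the chosen cells than in the others of both libraries.

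Genes of the oxidant response driven by NRF2 showed a like order. Of 17 measured, 16 were higher in iron-positive than in iron-negative chosen cells, with a median log2 ratio of 0.27 against 0.94 in the other phagocytes. The share of all genes higher in iron-positive chosen cells was not counted, so their median is given instead. The median of all genes was -0.05 in the chosen cells and -0.11 in the others. Gclm, a subunit of the enzyme that starts glutathione synthesis, was at 25.9 and 59.1 CPM in chosen cells and at 42.3 and 198 CPM in the others. Prdx1, a peroxidase, had log2 ratios of 0.79 and 1.54 in the 2 groups. Mt2, a metal-binding metallothionein, was at 41.0 and 85.3 CPM in the chosen cells and at 81.8 and 335 CPM in the others. The difference between the groups' ratios was not tested.

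Mmp12, the macrophage elastase, had the largest ratio between fractions by the rule for named genes. It was at 160 and 512 CPM in the chosen cells, a log2 ratio of 1.68 (1.57 to 1.79), and at 46.7 and 678.5 CPM in the others, a log2 ratio of 3.86. Most of its UMIs came from few cells, since 70.8% of iron-negative and 45.7% of iron-positive chosen cells had none and the top 10% of cells held 78.2% and 75.1% of them. Ccl3, a chemokine, was at 19.4 and 59.3 CPM in the chosen cells and Cxcl3, a neutrophil-attracting chemokine, at 27.0 and 65.7. Wfdc17, a small secreted protein of macrophages, was at 183 and 371 CPM.

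Genes of dividing cells were higher in the iron-positive chosen cells. Of 18 cell cycle genes measured, 17 were higher there than in iron-negative chosen cells. The list's median log2 ratio was 0.43, against -0.23 in the other phagocytes. Here too the share of all genes higher in the iron-positive cells was not counted. The median of all genes was -0.05 in the chosen cells and -0.11 in the others. At full depth, 16.9% of iron-negative and 17.3% of iron-positive chosen cells had a Top2a UMI. With cells thinned to equal depth the shares were 6.65% (4.39 to 9.59) and 9.52% (7.01 to 12.6), with overlapping intervals. Whether more of the iron-positive cells were dividing was not tested. Hist1h1b, a linker histone made in S phase, was at 31.0 and 82.5 CPM, a log2 ratio of 1.41, against 0.22 in the others. Without cells holding a Top2a or Mki67 UMI the Hist1h1b ratio in the chosen cells turned to -0.21 and the median of the list to -0.11. This alternative removes cells by genes of dividing cells, so the loss of the difference was largely set by that removal. Pclaf, a replication factor, was at 44.1 and 92.1 CPM, and Top2a at 53.1 and 102. Against the other phagocytes of each library, 14 of the 18 genes were lower and 1 higher in both, with medians of -1.0 and -0.21.

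The genes highest in iron-negative chosen cells differed by less than 2-fold. AC149090.1, a gene known by its clone name, was at 115 CPM there and at 63.9 CPM in iron-positive chosen cells, a log2 ratio of -0.85. Nrg1, the growth factor neuregulin 1, was at 163 and 99.0 CPM, a log2 ratio of -0.72, and Neurl3, a ubiquitin ligase, at 194 and 129. The log2 ratios of Baiap2, Atp2b4, Hivep2, Jmy, Eed, Btbd9 and Cmtm3 lay between -0.65 and -0.56, and that of Hivep2 turned to 0.16 with cells thinned to 3000 UMIs. H2-Aa was lower in the iron-positive cells of both groups, with log2 ratios of -0.22 in the chosen cells and -0.64 in the others. Il1b had -0.17 and -0.25 and Klrb1b -0.11 and -0.04. Gpr171 had -0.39 and -0.49, and Gas6 had 0.55 and 0.54, higher in the iron-positive cells of both groups.

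**Figure D5:**
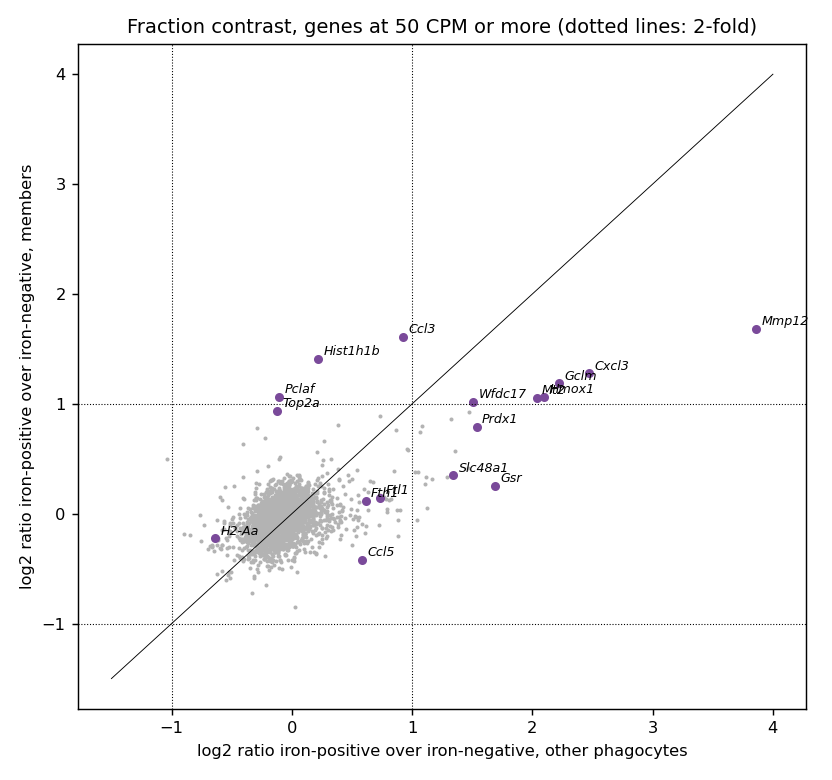
Log2 ratio of iron-positive over iron-negative cells for each gene at 50 CPM or more, in the other phagocytes (x) and the chosen cells (y); the 2 axes come from the same 2 libraries and the line is equality. Mmp12 lies at 3.86 and 1.68 and Hmox1 at 2.10 and 1.06, below the line, while Hist1h1b lies at 0.22 and 1.41, above it.

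Across the series, the iron-negative library held 10124 barcodes and the iron-positive library 13668, and no barcode had fewer than 500 UMIs. The chosen cells had median depths of 12631 and 10651.5 UMIs and medians of 3403 and 3038.5 genes, the other phagocytes 14380 and 11430.5 UMIs, and the mitochondrial median was under 3% in the chosen cells of both libraries. The libraries shared 85 barcodes, and 3 chosen cells in each carried one, none of them shared between chosen cells. The doublet caller marked under 0.5% of barcodes in each library and so did not work. With the highest doublet scores removed in its place, 30 and 47 chosen cells were lost, 7.67% and 10.2%, against 9.50% and 11.4% of the other phagocytes.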

How the data were processed

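Each of the 2 libraries was used as a deposited matrix of raw UMI counts per gene and barcode. The submitters' processing notes name Cell Ranger 3.1.0 and mm10, while the file headers name Cell Ranger 5.0.0, and which version made the deposited counts is not settled. Where a symbol occurred in more than 1 row, the first row was kept. With 1 library a fraction, and cells not being replicates, no test was run. The UMIs of all cells in a group were added up within a library and scaled to counts per 1000000 (CPM), and log2 ratios carry a prior of 0.5 UMIs. Shares have exact binomial (Clopper-Pearson) 95% intervals and ratios exact conditional ones, all for counting error only. A called gene is 2-fold different with at least 50 CPM in the higher group of each library compared.

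Named genes, with at least 100 UMIs in the chosen cells, were the 15 highest and 12 lowest against other phagocytes, ordered by the smaller of both libraries' log2 ratios, the 10 largest ratios each way between fractions, and list genes at 10 CPM or more. The members and lists were chosen with earlier results of these data known, and the genes of the detection, single-marker, per-cell and subset comparisons after their values were seen. Fraction ratios were recomputed for genes at 20 CPM or more and Slc40a1, a limit set after the values were seen. Stromal cells had fewer than 3 of the 4 phagocyte genes and Cdh5 of at least 3, Rgs5 of at least 5 or Col1a1 of at least 20 UMIs. Thinning drew 3000 UMIs a cell without replacement. Promoter windows came from RefSeq and coordinates from GENCODE, both on GRCm38. Scrublet was run through scanpy 1.11.5, sums and intervals used pandas 2.3.3, scipy 1.17.1 and numpy 2.4.6 under Python 3.11.15, plots used matplotlib 3.10.9, and the steps were tested on simulated data. Alternatives covered the gate, the share taken, the monocyte rule, thinning, doublet scores, free RNA, the averaging and the CPM minimum.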

Additional observations from a re-analysis of the deposited data

Results flagged for a closer look

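The results below lay on opposite sides of 0 in the 2 libraries or in the 2 groups of cells, with a size of at least 0.3 on the log2 scale for genes at 50 CPM or more and 0.2 for lists, limits chosen after the values were seen. None of these differences was tested, since each rests on 1 library a fraction. Mmp12, the macrophage elastase, had a log2 ratio of chosen cells over other phagocytes of 1.77 in the iron-negative and -0.41 in the iron-positive library. Ero1l, an oxidase of protein folding induced by hypoxia, had 0.68 and -0.42. Clec4d, a C-type lectin, had 0.43 and -0.62, and Bnip3, a mitochondrial protein induced by hypoxia, had 0.33 and -0.51. Ccl5, a chemokine, had 0.30 and -0.70, and between fractions it had -0.42 in the chosen cells and 0.59 in the others. Hist1h1b, the linker histone, had -0.71 and 0.49, and without cells holding a Top2a or Mki67 UMI the iron-negative value turned to 0.72. The cell cycle list had a median log2 ratio of iron-positive over iron-negative cells of 0.43 in the chosen cells and -0.23 in the others.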

How the results depend on the processing

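No paired analysis was possible because each fraction is 1 library, and for the same reason no replicate could be left out. Over 11 listed alternatives and 2 chosen after seeing the data, 1104 gene and list values gave 14345 comparisons, of which 14130 moved by at most 1.5 times, 212 moved more and 3 of at least 2-fold turned direction. At any size 690 changed sign, 40 of them with a reported log2 value of 0.3 or more. The alternative of 20 CPM changes only which genes are counted. Its 1104 comparisons, all among those that stayed within 1.5 times, were therefore fixed in advance and say nothing on stability. With Ly6c2- and Plac8-high cells kept, the iron-negative log2 ratios of Cmpk2 and Rsad2 over other phagocytes turned to 0.26 and 0.12. Without cells holding a Top2a or Mki67 UMI, the fraction ratio of Hist1h1b turned to -0.21, a change largely set by removing cells by genes of dividing cells. The share of chosen cells was 2.79% and 4.06% of iron-negative and iron-positive phagocytes for the top 5%, 6.28% and 8.17% for the top 10%, 6.79% and 9.43% with Ly6c2- and Plac8-high cells kept, and 5.76% in the iron-negative library without Top2a or Mki67 cells. The ratio of these shares ran from 1.24 without Top2a or Mki67 cells to 1.46 for the top 5%. At 3000 UMIs a cell it was 1.31 (1.14 to 1.502), but 400 cells tied at that threshold and 254 of them were drawn at random, and it would be 1.02 with iron-negative or 1.70 with iron-positive ties taken first.

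Genes at least 2-fold higher than in other phagocytes numbered 43 with Ly6c2- and Plac8-high cells kept and 45 at 20 CPM, against 27. Those lower numbered 117 at 20 CPM and 81 with 10% free RNA subtracted, against 53. Genes at least 2-fold higher in iron-positive chosen cells numbered 5 after thinning, with doublet scores removed or by the mean of cells, 4 without Top2a or Mki67 cells and 21 at 20 CPM, against 9. Those lower numbered 1 after thinning, with the top 8% of each library or with doublet scores removed, and 4 at 20 CPM, against 0. The lower CPM minimum tests more genes, and the cause of the other differences was not tested.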

Other observations

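Genes of glycolysis and hypoxia, which cells raise when oxygen is short, were higher in the chosen cells than in the other phagocytes of the iron-negative library. Of 19 measured, 10 were higher and 2 lower than in the other phagocytes of both libraries, with medians of 0.48 and 0.00. Over all 7541 genes at 10 CPM or more, 32.1% were higher and 43.1% lower in both. Between fractions the list's median log2 ratio in the chosen cells was -0.07, near the -0.05 of all genes. Vegfa, the vascular growth factor, was at 516 and 452 CPM against 274 and 365, and Ndrg1, a hypoxia target, at 134 and 125 CPM against 52.2 and 86.4. Slc2a1, a glucose transporter, was at 167 and 147 CPM against 94.6 and 144. In the chosen cells the 3 genes were close between fractions, while the other phagocytes had more in the iron-positive library.

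Among 18 measured myeloid transcription factors, 6 were higher and 9 lower in both libraries. Over all 7541 genes at 10 CPM or more, 32.1% were higher and 43.1% lower in both, so these counts lay near the shares of all genes. Runx3, a factor of leukocyte development, was at 499 and 417 CPM against 356 and 283, and Maf, a factor of mature macrophages, at 251 and 217 CPM against 489 and 462. Of 10 C-type lectins 3 were higher and 4 lower in both, also near the shares of all genes. Mgl2 and Clec10a are related galactose-binding lectins, and they lay on opposite sides: Mgl2 was at 99.0 and 99.5 CPM against 47.4 and 34.9, and Clec10a at 17.0 and 15.4 CPM against 48.0 and 92.0. Of 13 adhesion genes 7 were higher and 2 lower in both libraries.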
